A study of Mus musculus with 12 samples.

Results

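CXC chemokines are small secreted proteins that steer leukocytes through tissue. Here 10 of their genes were followed through RNA-seq of mouse bone marrow macrophages (BMMs) and bone marrow mesenchymal stem cells (MSCs). The genes were Cxcl1, Cxcl2, Cxcl3, Cxcl5, Cxcl9, Cxcl10, Cxcl11, Cxcl12, Cxcl14 and Cxcl16, taken by their Ensembl identifiers from 55487 genes with counts in each library, and all 10 were found. All cells came from the limbs of C57BL/6 mice, for which the labels give an age of 8 weeks. The BMMs were grown from the marrow of female mice that had been ovariectomized (OVX), a model of the estrogen loss behind osteoporosis, or sham-operated, with 3 libraries of each. The MSCs were cultured alone (MSC), or faced RAW264.7 cells through a porous transwell membrane. These RAW264.7 cells were untreated (MSC+RAW-TW) or stimulated with lipopolysaccharide (MSC+RAW-LPS-TW), and each of the 3 MSC groups had 2 libraries. RAW264.7 is a mouse macrophage line, and lipopolysaccharide (LPS) is a component of the bacterial outer membrane that activates macrophages through Tlr4. The labels do not say whether the libraries of a group came from separate mice or cultures, so p-values measure the spread between these libraries, which may be technical.

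The family is usually divided by a short motif ahead of the first cysteines of the protein. Members with the motif glutamate-leucine-arginine (ELR+: Cxcl1, Cxcl2, Cxcl3, Cxcl5) bind Cxcr2 and attract neutrophils. Cxcl9, Cxcl10 and Cxcl11 bind Cxcr3, attract activated T cells and are classical targets of interferons. Cxcl12, made by stromal cells, keeps hematopoietic stem cells and neutrophils in the marrow through Cxcr4, and Ackr3 removes it from the surroundings. Cxcl14 is a homeostatic member of epithelial and stromal tissue, and Cxcl16 is made as a membrane protein that binds Cxcr6 and can be shed. In macrophages and stromal cells the ELR+ genes are known targets of NF-kB, the transcription factor switched on by LPS and inflammatory cytokines.

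In GRCm38 the ELR+ genes lie together on the plus strand of chromosome 5, with Cxcl5 at chr5:90759360-90761624, Cxcl3 at chr5:90786103-90789600, Cxcl1 at chr5:90891241-90893115 and Cxcl2 at chr5:90903871-90905938. The Cxcr3 ligands form a second cluster on the minus strand of the same chromosome, with Cxcl9 at chr5:92321347-92328079, Cxcl10 at chr5:92346638-92348889 and Cxcl11 at chr5:92359544-92365485. The other members stand apart, with Cxcl12 at chr6:117168535-117181367, Cxcl14 at chr13:56288643-56296551 and Cxcl16 at chr11:70453983-70459984. In the GENCODE annotation 9 members are protein-coding genes, and Cxcl11 is listed as a polymorphic pseudogene.

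RefSeq promoters (GRCm38.p6) were matched for 7 members: Cxcl1, Cxcl2, Cxcl3, Cxcl9, Cxcl10, Cxcl12 and Cxcl14. Cxcl5, Cxcl11 and Cxcl16 had no entry in the set of promoters used here. The 250 bases before each start were searched on both strands for the letters of an NF-kB site (GGG, any 2 bases, TTTCC) and of an interferon-stimulated response element (ISRE: GAAA, any 2 bases, GAAA). Of 32817 mouse promoter windows of the same length, 1.41% held the first and 2.97% held the second. The promoters with a match are shown 5′ to 3′ in the direction of the gene, with the matched letters in capitals, to show where the letters lie. Cxcl9 and Cxcl12 held neither motif. The NF-kB letters occurred 2 times in Cxcl1 (once on the opposite strand) and Cxcl2 and 1 time in Cxcl3, between 71 and 97 bases before the start. The ISRE letters occurred in Cxcl10, 213 bases before the start, and in Cxcl14, 172 bases before it. A match says only that the letters are there, not that a factor binds.
Cxcl1, chr5:90890995-90891244, plus strand: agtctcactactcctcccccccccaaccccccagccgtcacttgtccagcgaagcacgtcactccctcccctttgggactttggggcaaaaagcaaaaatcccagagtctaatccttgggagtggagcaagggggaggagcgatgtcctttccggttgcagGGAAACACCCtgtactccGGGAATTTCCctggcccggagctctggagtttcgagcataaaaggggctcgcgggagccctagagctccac
Cxcl2, chr5:90903649-90903898, plus strand: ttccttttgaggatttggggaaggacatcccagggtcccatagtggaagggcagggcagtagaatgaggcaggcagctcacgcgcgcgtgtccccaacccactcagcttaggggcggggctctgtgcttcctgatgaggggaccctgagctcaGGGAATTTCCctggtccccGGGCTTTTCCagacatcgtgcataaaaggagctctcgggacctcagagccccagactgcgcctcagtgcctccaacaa
Cxcl3, chr5:90785851-90786100, plus strand: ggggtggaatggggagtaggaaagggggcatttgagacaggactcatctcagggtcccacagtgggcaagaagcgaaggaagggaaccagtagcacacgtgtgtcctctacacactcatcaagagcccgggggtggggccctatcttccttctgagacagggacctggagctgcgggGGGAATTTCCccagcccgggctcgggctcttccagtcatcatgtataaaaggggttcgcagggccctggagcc
Cxcl10, chr5:92348890-92349139, minus strand: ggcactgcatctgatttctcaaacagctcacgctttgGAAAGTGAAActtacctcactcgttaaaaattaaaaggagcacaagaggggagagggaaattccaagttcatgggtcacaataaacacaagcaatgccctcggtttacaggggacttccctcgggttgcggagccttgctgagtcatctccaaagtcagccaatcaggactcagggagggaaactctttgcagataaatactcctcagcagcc
Cxcl14, chr13:56296552-56296801, minus strand: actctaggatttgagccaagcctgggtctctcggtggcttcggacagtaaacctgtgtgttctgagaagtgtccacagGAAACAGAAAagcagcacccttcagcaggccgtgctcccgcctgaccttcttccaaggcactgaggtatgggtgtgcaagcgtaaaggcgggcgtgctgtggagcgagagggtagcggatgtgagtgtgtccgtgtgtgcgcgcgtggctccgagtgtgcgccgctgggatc

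Libraries held between 17012923 and 45367105 counts. Sham replicates 2 and 3 were nearly identical, as were both MSC+RAW-TW libraries, and each pair was therefore counted as 1 sample, which left 2 sham samples and a single MSC+RAW-TW sample. The MSC+RAW-TW and MSC+RAW-LPS-TW libraries are called A and B, because the table gives their group but not their replicate number. The libraries were also checked against markers of the labelled cell type. Summed over 12 macrophage markers, BMM libraries held between 43180 and 63250 CPM (counts scaled to a common library total). The MSC libraries held the same macrophage markers at high levels too, with 28140 to 28230 CPM in MSC, 38000 to 38570 in MSC+RAW-TW and 14720 to 15320 in MSC+RAW-LPS-TW. Summed over 12 stromal markers, the values were 1740 to 1806 CPM in MSC, 1430 to 1450 in MSC+RAW-TW, 2609 to 2629 in MSC+RAW-LPS-TW and 4935 to 5845 in the BMM libraries. Lum stayed under 1 CPM in every MSC and MSC+RAW-TW library, and Thy1 in every MSC and MSC+RAW-LPS-TW library. In such bulk RNA, fewer cells of a type and less RNA per cell cannot be told apart, and the part of other cell types in the results was not tested. The share of ribosomal RNA in the counts, nuclear and mitochondrial genes together, also differed without overlap between the groups of each comparison. It was 3.22% to 5.70% in sham, 2.56% to 2.78% in OVX, 4.14% to 4.82% in MSC, 1.91% to 1.93% in MSC+RAW-TW and 5.67% to 8.03% in MSC+RAW-LPS-TW. Without ribosomal RNA genes the same number of members was called in each comparison, and whether RNA quality had a part was not tested.

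Among the 10 members, Cxcl5, Cxcl12 and Cxcl16 had the highest levels in BMMs. Levels of different genes were compared as CPM per kb of exon, because longer transcripts collect more reads. On that scale Cxcl5 made up 54.2% of the 10 members' mean level in sham and 44.0% in OVX. Cxcl12 followed with 16.9% and 28.9%, and Cxcl16 with 15.4% and 15.5%. The sham share of Cxcl5 leaned on sham replicate 1, at 507.6 CPM per kb against 231.1 and 231.9 in sham replicates 2 and 3. Shares are within the 10 members only. Pf4, a CXC ligand outside them, averaged 222.4 CPM per kb in sham and 448.9 in OVX, against 369.6 and 196.2 for Cxcl5. MSCs cultured alone had another order, with Cxcl14 at 32.9%, Cxcl16 at 22.5% and Cxcl12 at 19.9%. In MSC+RAW-TW the share of Cxcl14 was 47.7%. In MSC+RAW-LPS-TW the 4 ELR+ members led, with Cxcl5 at 24.2%, Cxcl1 at 21%, Cxcl2 at 19.8% and Cxcl3 at 15.6%. Cxcl11 was last in every group.

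The summed level of the 10 members separated MSC+RAW-LPS-TW from the other groups. It was 2249 to 2573 CPM per kb there, against 191.4 to 228.6 in MSC and 264.3 to 274.5 in MSC+RAW-TW. The BMM libraries held 525.6 to 835.1 CPM per kb in sham and 369.3 to 522.6 in OVX. Every OVX library lay under every sham library. Pf4, a CXC ligand outside the 10, is not in these sums. Its level was 147.4 to 296 CPM per kb in sham and 413.6 to 468.3 in OVX. It was 3362 to 4022 in MSC, 4764 to 4792 in MSC+RAW-TW and 2738 to 3743 in MSC+RAW-LPS-TW. The sums therefore do not describe CXC transcripts as a whole. ELR+ transcripts made up 79.6% to 81.8% of the 10 members' sum in MSC+RAW-LPS-TW, 20.4% to 26.1% in MSC and 8.35% to 8.66% in MSC+RAW-TW. Their share was 56.4% to 70.1% in sham and 45.6% to 56.1% in OVX. The BMM and MSC tables were normalized apart, so levels set across them are descriptions.

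**Figure D1:**
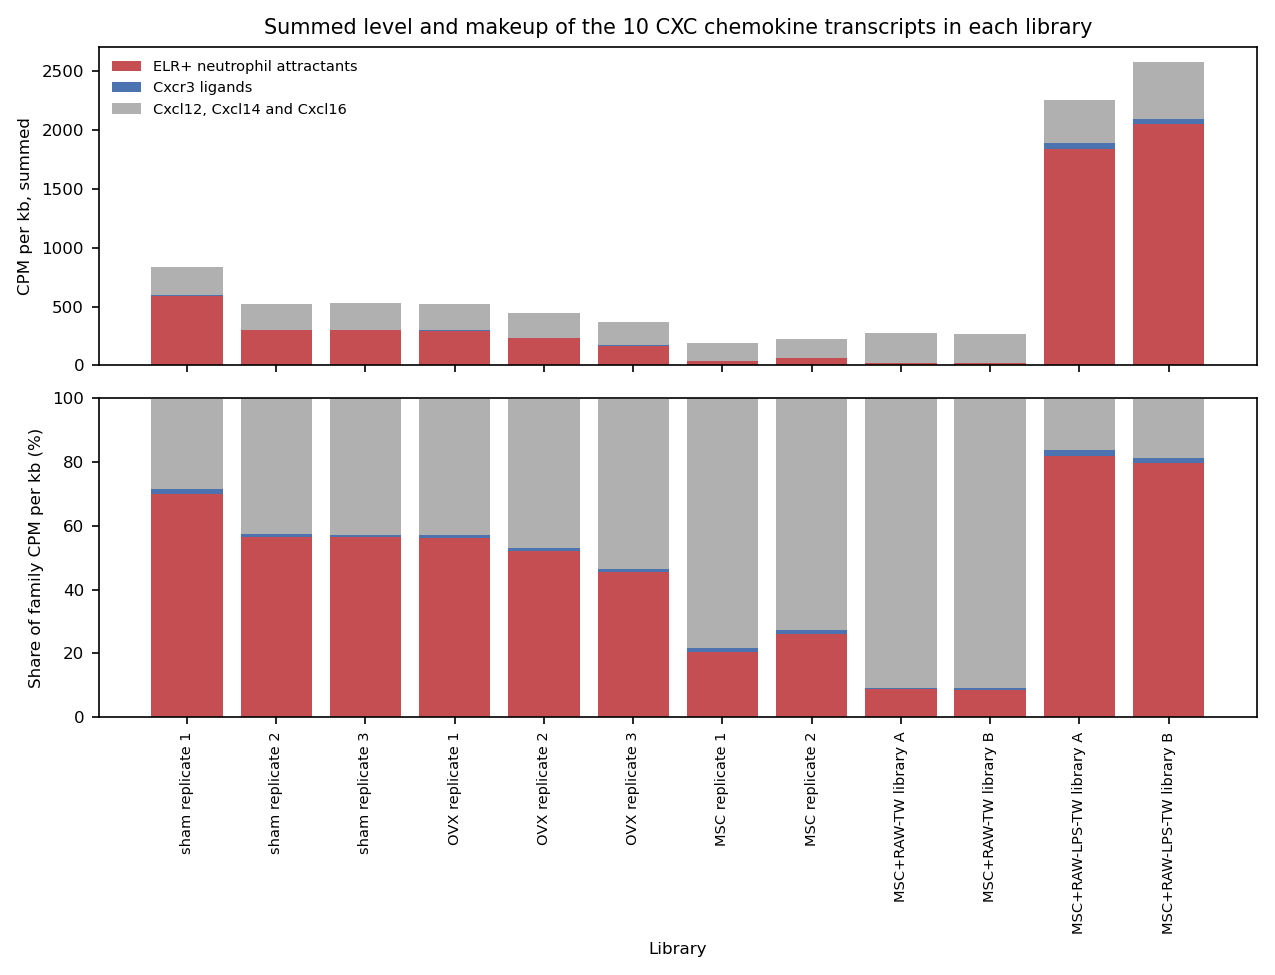
Bars stand for the 12 libraries; the upper panel gives the summed level of the members in CPM per kb of exon and the lower panel the share of each subgroup in percent. ELR+ members fill 79.6% to 81.8% of the bars of MSC+RAW-LPS-TW and 8.35% to 8.66% of those of MSC+RAW-TW.

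OVX and sham BMMs were compared to ask how ovariectomy changes the chemokine transcripts of marrow macrophages. Cxcl1 and Cxcl9 fell in OVX, by 3.17-fold and 2.9-fold. Cxcl2 and Cxcl12 lay close to their sham levels. A gene was called when it changed by at least 2-fold at an adjusted p of at most 0.05 (edgeR's quasi-likelihood test, Benjamini-Hochberg over all genes tested). Of the 10 members, 9 passed the filter on low counts, and 2 of these were called, both lower. Among all 16768 genes tested, 8.46% were called, 5.39% higher and 3.08% lower. The median log2 fold change of the 9 members was -0.71.

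Cxcl1, the neutrophil attractant also known as KC, stood at 94.4, 84.8 and 83.8 CPM in sham replicates 1 to 3 and at 35.6, 29.7 and 19.8 CPM in OVX replicates 1 to 3. Every OVX library lay far below every sham library. The log2 fold change was -1.67 (SE 0.25, adjusted p = 0.0084). Its neighbor Cxcl2 (MIP-2) gave 39.2, 36.4 and 38.9 CPM in sham and 35.0, 38.4 and 35.7 CPM in OVX. These ranges overlapped, and the log2 difference of -0.09 had a 95% interval from -0.48 to 0.29. The ratio of Cxcl1 to Cxcl2 was 2.15 to 2.41 in the sham libraries and 0.554 to 1.02 in the OVX libraries. The ratio is given as a description. A test over the 10 possible splits of 3 OVX and 2 sham samples cannot reach a p under 0.2. It therefore cannot decide whether the genes differed in their change.

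Cxcl3 and Cxcl5 depended on sham replicate 1. Cxcl3 gave 29.4, 10.3 and 11.1 CPM in sham and 11.8, 7.67 and 6.43 CPM in OVX. Only sham replicate 1 stood above all OVX libraries, and the log2 difference of -1.23 (SE 0.42) did not pass the test (adjusted p = 0.0908). Cxcl5, a neutrophil attractant and the most abundant member per length, gave 945.7, 430.5 and 432 CPM in sham and 473.3, 364.6 and 258.5 CPM in OVX. The groups overlapped, and the log2 difference was -0.92 (SE 0.35, adjusted p = 0.121). Without sham replicate 1 these differences shrank to -0.32 and -0.25. Once trends with GC content and transcript length were taken out of each sample, both were called, at -1.70 (adjusted p = 0.0284) and -1.54 (adjusted p = 0.016), and DESeq2 called Cxcl3 (adjusted p = 0.0294).

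Of the Cxcr3 ligands, Cxcl9 (MIG) gave 8.23, 8.30 and 4.95 CPM in sham and 3.29, 2.43 and 1.90 CPM in OVX. All OVX libraries lay below the lowest sham library, and the log2 fold change was -1.54 (SE 0.30, adjusted p = 0.017). Cxcl10 (IP-10) gave 21.8, 5.13 and 5.97 CPM in sham and 10.3, 8.61 and 6.43 CPM in OVX. Here a single sham library was high, so that the log2 difference of -0.71 (adjusted p = 0.361) turned to 0.58 without sham replicate 1. Cxcl11 was at 0 counts in all 3 sham libraries and at 4, 0 and 1 counts in OVX, which is too few for a test.

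The remaining members had no call. Cxcl16 gave 308.2, 322.9 and 329 CPM in sham and 211.2, 209.3 and 203.9 CPM in OVX. The groups were tight and did not overlap, and the log2 difference of -0.62 (SE 0.16, adjusted p = 0.0443) was under the 2-fold limit. Cxcl12, the retention factor of the marrow, ran from 845.9 to 1029 CPM in sham and from 947.7 to 1169 CPM in OVX, a log2 difference of 0.15 with a 95% interval from -0.28 to 0.58. Cxcl14 ran from 17.4 to 24.4 CPM in sham and from 19.5 to 25.4 CPM in OVX, a log2 difference of 0.10 with a 95% interval from -0.40 to 0.61. Zmynd15 overlaps Cxcl16 on the opposite strand, and its counts reached at most 672 in a library.

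**Figure D2:**
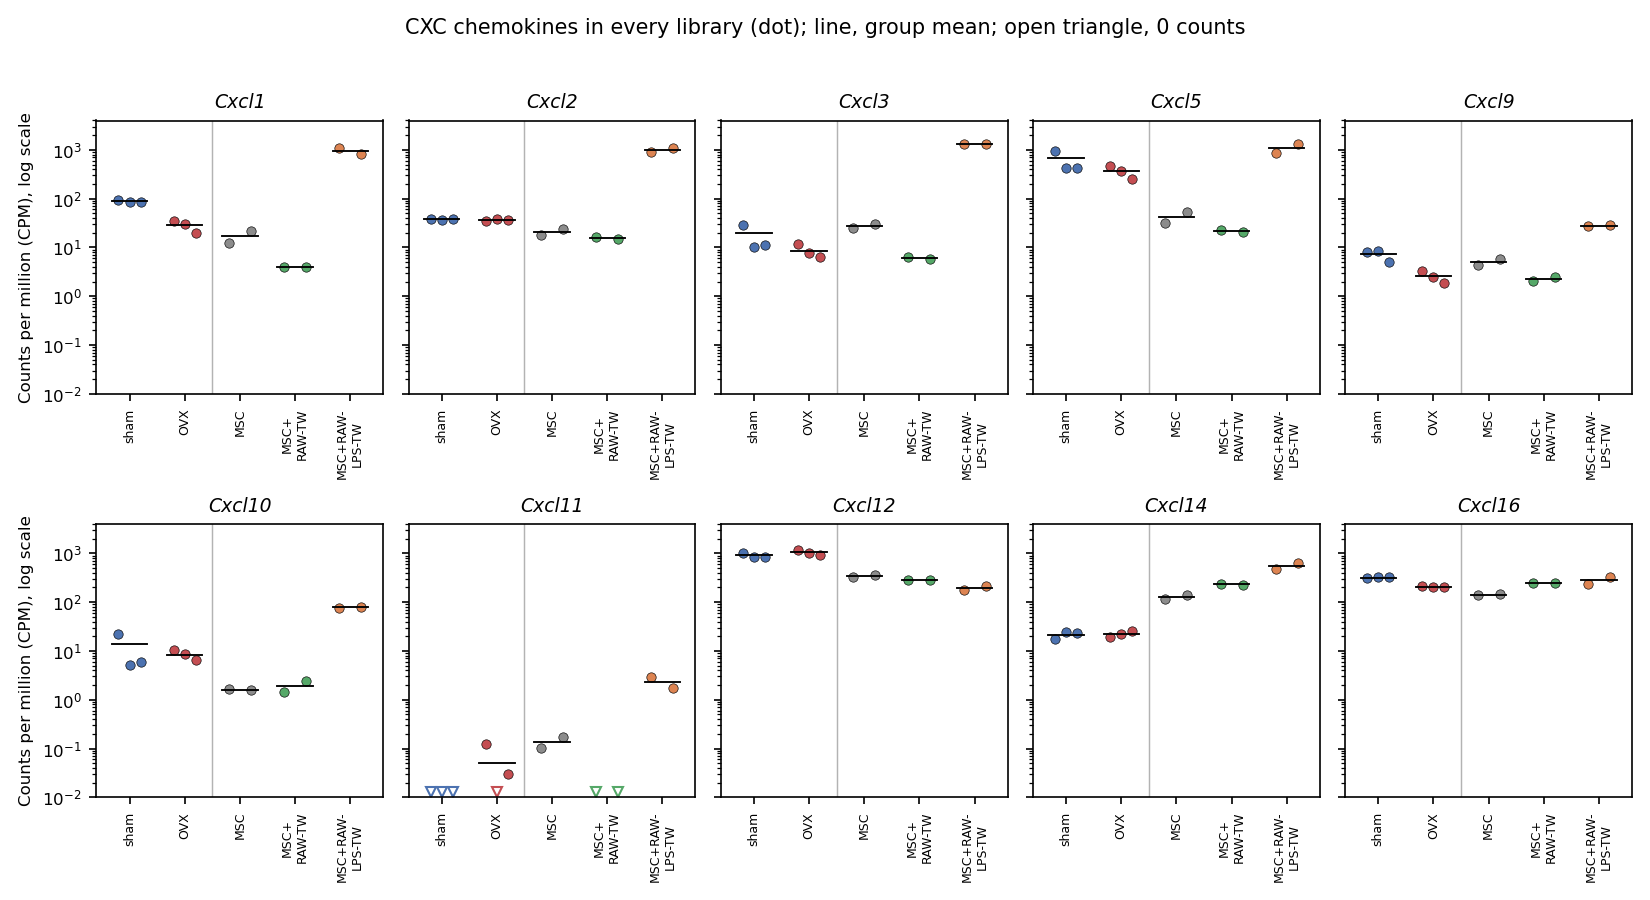
Each panel gives 1 member in CPM on a log axis, with a dot for each library, a line for the group mean over samples and an open triangle for a library at 0 counts; the gray line divides BMMs from MSCs. Cxcl1 lies at 19.8 to 35.6 CPM in OVX against 83.8 to 94.4 in sham, and the ELR+ members reach 825.4 to 1333 CPM in MSC+RAW-LPS-TW.

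The calls for Cxcl1 and Cxcl9 were lost without OVX replicate 2 (adjusted p = 0.0533 and 0.089), while their log2 fold changes stayed at -1.69 and -1.49. The number in the column names divides the libraries into 2 series, whose meaning is not given in the sources used here. Within the series of OVX replicate 2 and sham replicate 2 the log2 ratios were -1.51 for Cxcl1 and -1.77 for Cxcl9, and within the other series -1.69 and -1.34. These values are not independent, because sham replicates 2 and 3, counted as 1 sample, fall in different series. Macrophage marker sums were 59030 to 63250 CPM in sham and 43180 to 47590 in OVX, with 2 of 12 markers called lower (Adgre1 and Fcgr1). Lyz2, which was not called (-0.42, adjusted p = 0.113), made up most of these sums and of their difference, at 48360 to 51580 CPM in sham and 36110 to 40470 in OVX. Of the other markers Cd68 (0.06) and Ptprc (0.63) had higher values in OVX, neither called. Neutrophil marker sums were 807.8 to 943.9 CPM in sham and 1201 to 1334 in OVX, B cell marker sums were 19.2 to 22.2 and 8.24 to 9.24, and stromal marker sums 4935 to 5185 and 5257 to 5845. None of the 9 neutrophil markers was called, and S100a8 and S100a9 made up most of their sum, while Elane (-0.60), Mpo (-0.98) and Camp (-0.25) had lower values in OVX. Cd79b, which was called lower (-1.44, adjusted p = 0.00741), made up most of the B cell sum, while Ms4a1 had a higher value in OVX (1.04, not called). The part of these in the results was not tested.

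MSCs opposite LPS-stimulated RAW264.7 cells were compared with MSCs cultured alone to ask what stimulated macrophages change in the cells labelled MSC. All 4 ELR+ members and all 3 Cxcr3 ligands rose, together with Cxcl14. By estimate, the largest of these rises was that of Cxcl1, at 56.6-fold, and Cxcl10, Cxcl3 and Cxcl2 followed at 49.0-fold, 48.0-fold and 47.2-fold. The 95% intervals of these genes overlapped, and their order was not tested. Of 10 members, all tested, 8 were called, all higher. Among all 20499 genes tested, 10.9% were called, 5.85% higher and 5.09% lower. The median log2 fold change of the members was 4.39.

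Cxcl1 gave 12.3 and 21.2 CPM in MSC and 1070 and 825.4 CPM in MSC+RAW-LPS-TW (log2 fold change 5.82, SE 0.26, adjusted p = 2.63e-10). Cxcl2 gave 17.6 and 24.3 CPM in MSC and 895.8 and 1083 CPM in MSC+RAW-LPS-TW (5.56, SE 0.21, adjusted p = 5.14e-11). Cxcl3 gave 25.1 and 29.6 CPM in MSC and 1333 and 1294 CPM in MSC+RAW-LPS-TW (5.58, SE 0.19, adjusted p = 1.15e-11). Transcripts of Cxcl2 and Cxcl3 share an identical run of 157 bases. A read pair wholly inside that run could come from either gene, and the share of such reads was not measured. Cxcl5 gave 31.2 and 52.6 CPM in MSC and 846.3 and 1329 CPM in MSC+RAW-LPS-TW (4.70, SE 0.27, adjusted p = 3.87e-09).

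Among the Cxcr3 ligands, the estimated rise was largest for Cxcl10. It gave 1.66 and 1.56 CPM in MSC and 77.1 and 81.3 CPM in MSC+RAW-LPS-TW (log2 fold change 5.62, SE 0.20, adjusted p = 2.52e-11). Its cluster neighbor Cxcl9 gave 4.35 and 5.87 CPM in MSC and 28.1 and 28.2 CPM in MSC+RAW-LPS-TW (2.46, SE 0.22, adjusted p = 5.14e-07). The 95% interval of Cxcl9 ran from 2.0 to 2.93 and that of Cxcl10 from 5.19 to 6.04, and the difference between the genes was not tested. Cxcl11 remained rare, with 0.102 and 0.176 CPM in MSC and 2.94 and 1.75 CPM in MSC+RAW-LPS-TW (4.08, SE 0.71, adjusted p = 0.000518).

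Outside the clusters, Cxcl14 gave 115.2 and 137.5 CPM in MSC and 482.7 and 630.4 CPM in MSC+RAW-LPS-TW, a log2 fold change of 2.14 (SE 0.17, adjusted p = 2.22e-07). Cxcl16 gave 141.7 and 143.9 CPM in MSC and 239 and 329.7 CPM in MSC+RAW-LPS-TW. Its log2 difference of 0.99 (SE 0.17, adjusted p = 0.000439) fell just under the 2-fold limit, and passed it without MSC+RAW-LPS-TW library A (1.18), without MSC replicate 2 (1.01) and with the trends removed (1.07). Cxcl12 was the 1 member with a lower value, at 328.5 and 353.7 CPM in MSC against 179.5 and 210 CPM in MSC+RAW-LPS-TW. The groups did not overlap, and the log2 difference was -0.81 (SE 0.15, adjusted p = 0.00106), under the 2-fold limit.

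Against MSC+RAW-TW, MSC+RAW-LPS-TW differs in the LPS stimulation of the RAW264.7 cells, so this comparison asks what stimulation adds. The MSC+RAW-TW arm is 1 sample, assumed to vary like the other groups. Both comparisons use the same MSC+RAW-LPS-TW libraries. Of the 10 members, 8 were called, all higher, and they were the 8 named above. Among all genes tested 27.4% were called, 15.4% higher and 12% lower, and the median log2 fold change of all genes was 0.14. Among members with counts in both groups, the largest values were 7.88 for Cxcl1 (SE 0.40, adjusted p = 1.57e-09) and 7.73 for Cxcl3 (SE 0.29, adjusted p = 1.13e-10), which stood at 3.91 and 3.94 CPM and at 6.36 and 5.70 CPM in the MSC+RAW-TW libraries. Cxcl2 rose by 5.95 on the log2 scale (SE 0.30) from 16.1 and 15.2 CPM, and Cxcl5 by 5.62 (SE 0.39) from 22.5 and 20.5 CPM.

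In the same comparison Cxcl10 rose by 5.36 on the log2 scale (SE 0.26, adjusted p = 1.24e-09) from 1.42 and 2.45 CPM. Cxcl9 rose by 3.61 (SE 0.30, adjusted p = 3.91e-07) from 2.03 and 2.53 CPM. Cxcl11 was at 0 counts in both MSC+RAW-TW libraries and at 153 counts over both MSC+RAW-LPS-TW libraries, at least 59.7-fold higher than the level of 3 counts (0.0397 CPM) in the MSC+RAW-TW sample. Cxcl14 rose by 1.21 (SE 0.22, adjusted p = 0.000413) from 240.9 and 228.8 CPM. Cxcl12 (-0.57, SE 0.18, adjusted p = 0.021) was under the 2-fold limit, and Cxcl16 (0.17, 95% interval -0.27 to 0.61) was not called.

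MSC+RAW-TW against MSC asks what unstimulated RAW264.7 cells change. It rests on a single MSC+RAW-TW sample, which was assumed to vary like the other groups. Cxcl1, Cxcl3, Cxcl9 and Cxcl11 fell, and 4 of 10 members were called, all lower. Among all genes tested, 16.4% were called, 6.8% higher and 9.59% lower, and the median log2 fold change was -0.13. Cxcl1 went from 12.3 and 21.2 CPM in MSC to 3.91 and 3.94 CPM in MSC+RAW-TW (log2 fold change -2.06, SE 0.30, adjusted p = 0.000339). Cxcl3 went from 25.1 and 29.6 CPM to 6.36 and 5.70 CPM (-2.15, SE 0.22, adjusted p = 8.24e-05). The values of Cxcl2, 17.6 and 24.3 CPM in MSC against 16.1 and 15.2 CPM, gave -0.39 with a 95% interval from -0.86 to 0.09. As in OVX BMMs, the interval of Cxcl2 lay apart from that of Cxcl1 (-2.71 to -1.42), but the difference between the genes was not tested here.

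Cxcl9 went from 4.35 and 5.87 CPM to 2.03 and 2.53 CPM (log2 fold change -1.14, SE 0.28, adjusted p = 0.00675). This call was lost with the trends removed (-0.62, adjusted p = 0.103), and without MSC replicate 2 the value was under the 2-fold limit (-0.92). Cxcl11 had 11 counts over both MSC libraries and 0 in MSC+RAW-TW. MSC was thus 3.34-fold higher than a level of 3 counts in the single MSC+RAW-TW sample, a ratio that covers counting error only. The call of Cxcl11 was lost without either MSC+RAW-TW library or without MSC replicate 2. Under the 2-fold limit were Cxcl5 (-0.93, adjusted p = 0.0302), which was called without MSC replicate 1 (-1.26) or without MSC+RAW-TW library A (-1.03), Cxcl14 (0.93, adjusted p = 0.00333), which was called without MSC replicate 2 (1.06), and Cxcl16 (0.82, adjusted p = 0.00683). Cxcl10 (0.26) and Cxcl12 (-0.24) were not called.

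Cxcl14 therefore had its levels in the order MSC, MSC+RAW-TW and MSC+RAW-LPS-TW, at 126.3 ± 15.8 (SD, n = 2), 234.8 (n = 1) and 556.6 ± 104.4 CPM (SD, n = 2), with no overlap between libraries of different groups. Cxcl12 had the opposite order, at 341.1 ± 17.8, 282.8 and 194.7 ± 21.6 CPM, also without overlap, but MSC and MSC+RAW-TW did not differ beyond their spread by the test (-0.24, 95% interval -0.64 to 0.16, adjusted p = 0.348). Cxcl16 was lowest in MSC at 142.8 ± 1.56 CPM, while MSC+RAW-TW at 247.0 CPM lay inside the range of MSC+RAW-LPS-TW. For Cxcl1, Cxcl2, Cxcl3, Cxcl5 and Cxcl9 the order was MSC+RAW-TW, MSC and MSC+RAW-LPS-TW, and for Cxcl2 the first and the second of these did not differ beyond their spread by the test.

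**Figure D3:**
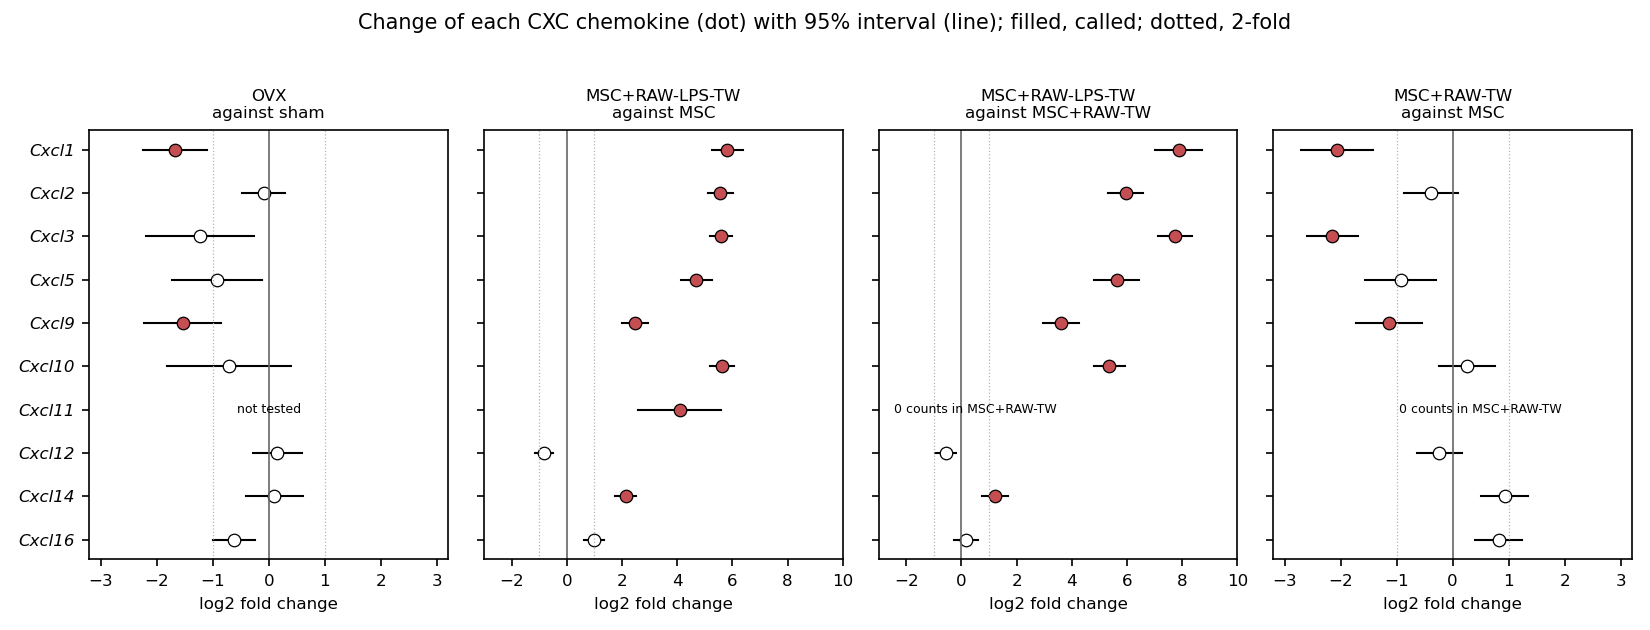
Dots give the log2 fold change of each member and lines its 95% interval in the 4 comparisons, filled where called, with dotted lines at 2-fold; Cxcl11 is left blank where its counts were too few or where MSC+RAW-TW was at 0 counts. In MSC+RAW-LPS-TW against MSC the called members lie between 2.14 and 5.82, while Cxcl12 lies at -0.81.

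These rises came with changes in marker genes of other cells. Macrophage marker sums were lower in MSC+RAW-LPS-TW than in both other MSC groups, as given above, with 5 of 12 markers called against MSC (4 lower) and 10 of 12 against MSC+RAW-TW (6 lower). Lyz2 made up most of these sums, at 21610 to 21700 CPM in MSC, 26270 to 26670 in MSC+RAW-TW and 9156 to 10020 in MSC+RAW-LPS-TW, while Adgre1 was called higher in MSC+RAW-LPS-TW against both (1.42 and 2.11). Neutrophil marker sums were 11.7 to 16.4 CPM in MSC, 31.7 to 34.7 in MSC+RAW-TW and 370.0 to 556.9 in MSC+RAW-LPS-TW. Of the 9 neutrophil markers, S100a8 and Camp rose in MSC+RAW-LPS-TW against MSC, by 5.0 (5.004, adjusted p = 5.92e-10) and 5.81 (adjusted p = 8.01e-10) on the log2 scale. The other 7 (S100a9, Ly6g, Elane, Mpo, Ngp, Ltf and Retnlg) stayed under 1 CPM in both MSC+RAW-LPS-TW libraries, and Elane, Ltf and Retnlg were at 0. The part of these in the results was not tested. Stromal marker sums were highest in MSC+RAW-LPS-TW, with 3 of 12 called against MSC, all higher, and 6 of 12 against MSC+RAW-TW, 5 higher and Thy1 lower (-2.37). B cell, T cell and erythroid marker sums stayed under 1 CPM in every MSC library. Endothelial marker sums ran from 31.4 to 42.4 CPM in these libraries. The number series of the column names holds 1 library of each MSC group. Within series A and B the log2 ratios of MSC+RAW-LPS-TW to MSC were 6.44 and 5.28 for Cxcl1, 5.67 and 5.48 for Cxcl2, 5.54 and 5.71 for Cxcl10 and 2.07 and 2.20 for Cxcl14.

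The position of the genes gives a further view, because other CXC genes lie among the ELR+ members. Ppbp and Pf4, platelet chemokines that macrophages also transcribe, start 9.2 and 13.1 kb after the start of Cxcl5, and Cxcl3 starts 26.7 kb after it. Pf4 was abundant in every MSC group, at 2424 to 2900 CPM in MSC, 3435 to 3455 in MSC+RAW-TW and 1974 to 2699 in MSC+RAW-LPS-TW. Its log2 difference between MSC+RAW-LPS-TW and MSC was -0.19 with a 95% interval from -0.56 to 0.18, while its neighbors Cxcl5 and Cxcl3 changed by 4.70 and 5.58. Ppbp, at 15.2 and 15.9 CPM in MSC and 23.3 and 38.9 CPM in MSC+RAW-LPS-TW, had a log2 difference of 1.00 (0.998, adjusted p = 0.00365), under the 2-fold limit. It was called against MSC+RAW-TW (1.81, adjusted p = 0.000157). In BMMs Cxcl5 and Cxcl3 had lower values in OVX, while Ppbp (log2 difference 0.45, adjusted p = 0.451) and Pf4 had higher ones, none of them past the test. Pf4 stood at 106.3 to 213.4 CPM in sham and 298.2 to 337.7 CPM in OVX (log2 difference 1.00, adjusted p = 0.0544).

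**Figure D4:**
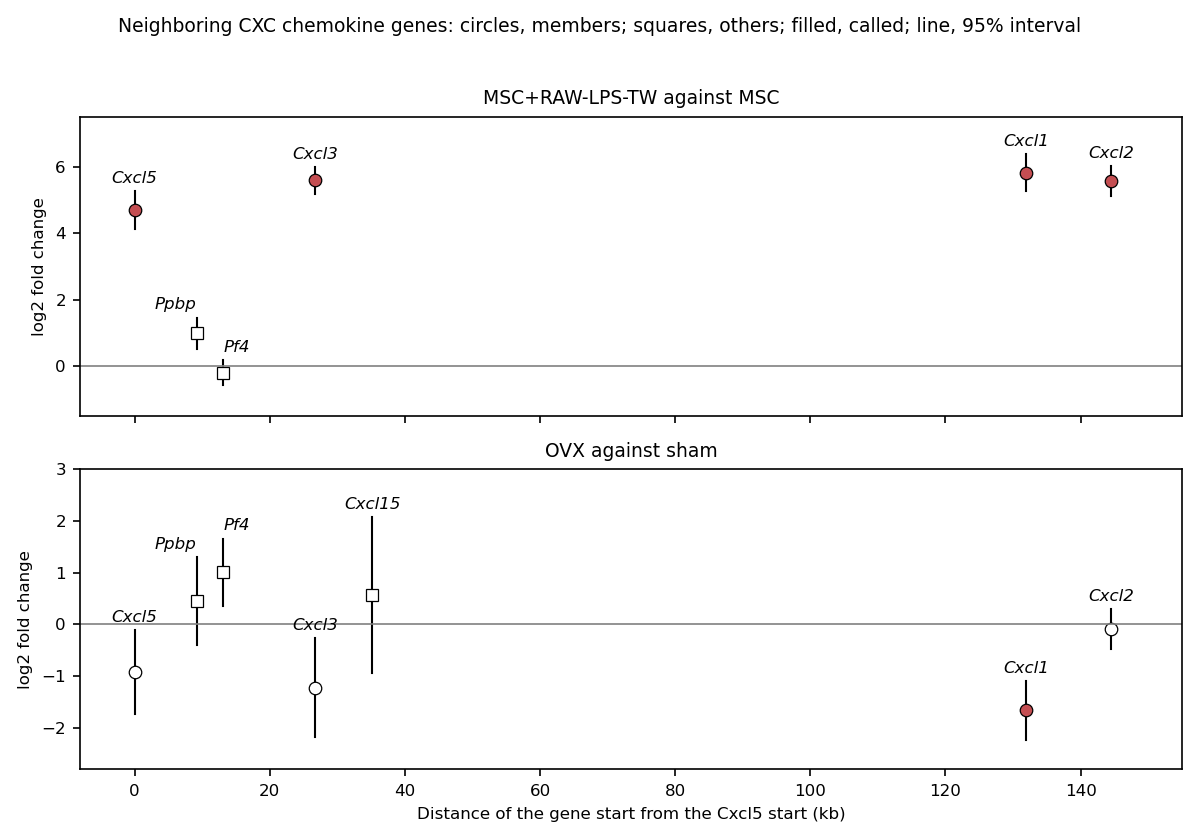
The log2 fold change with its 95% interval is plotted against the distance of each gene start from the start of Cxcl5 in kb, for MSC+RAW-LPS-TW against MSC (upper panel) and OVX against sham (lower panel); circles are members, squares other CXC genes, and filled symbols were called. In the upper panel Ppbp (1.00) and Pf4 (-0.19) lie between Cxcl5 (4.70) and Cxcl3 (5.58).

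Of the other CXC ligands, Cxcl13, a B cell attractant, rose in MSC+RAW-LPS-TW. It gave 2.74 and 5.31 CPM in MSC, 1.64 and 2.36 CPM in MSC+RAW-TW and 20.9 and 19.3 CPM in MSC+RAW-LPS-TW. The log2 fold change was 2.33 against MSC (SE 0.28, adjusted p = 1.58e-05) and 3.32 against MSC+RAW-TW (SE 0.39, adjusted p = 1e-05). Cxcl15 and Cxcl17 reached at most 1.19 CPM in any library.

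Among the receptors, those of Cxcl12 changed in both experiments. Cxcr4 gave 23.7, 30.4 and 31.5 CPM in sham and 69.7, 60.6 and 93.4 CPM in OVX, with no overlap, a log2 fold change of 1.44 (SE 0.25, adjusted p = 0.0113). Ackr3, the scavenger of Cxcl12, gave 4.64, 4.37 and 4.37 CPM in sham and 2.04, 2.51 and 1.87 CPM in OVX, a log2 fold change of -1.08 (SE 0.28, adjusted p = 0.0388). Of 8 receptor genes these 2 were called in BMMs, 1 higher and 1 lower, beside 8.46% of all genes tested, and their ligand Cxcl12 was not called. The call of Ackr3 was lost without any 1 of the OVX libraries (adjusted p = 0.103, 0.109 and 0.108) and without sham replicate 1 (adjusted p = 0.0645), with log2 values between -1.20 and -0.99 over all alternatives. In MSC+RAW-LPS-TW against MSC the directions were the reverse of these. Cxcr4 gave 31.4 and 30.0 CPM in MSC, 15.7 and 15.3 CPM in MSC+RAW-TW and 0.961 and 1.53 CPM in MSC+RAW-LPS-TW. It fell by 4.63 on the log2 scale against MSC (SE 0.25, adjusted p = 2.07e-09) and by 3.67 against MSC+RAW-TW (SE 0.27, adjusted p = 8.35e-08). Ackr3 gave 0.511 and 0.558 CPM in MSC and 2.37 and 2.55 CPM in MSC+RAW-LPS-TW (log2 fold change 2.20, SE 0.54, adjusted p = 0.00757), a call that was lost without MSC replicate 1 (2.13, adjusted p = 0.0651). In MSC+RAW-TW it had 1 count over both libraries, so that MSC was 40.1-fold higher, with a counting interval from 6.83 to 1619, and MSC+RAW-LPS-TW was 186-fold higher, with an interval from 32.9 to 7392.

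Cxcr3, the receptor of Cxcl9, Cxcl10 and Cxcl11, gave 2.41 and 1.82 CPM in MSC, 4.30 and 4.12 CPM in MSC+RAW-TW and 0.480 and 0.638 CPM in MSC+RAW-LPS-TW. It fell where its ligands rose, with a log2 fold change of -1.92 against MSC (SE 0.44, adjusted p = 0.00486) and -2.94 against MSC+RAW-TW (SE 0.49, adjusted p = 0.000222). In BMMs Cxcr3 gave 5.37 to 6.98 CPM in sham and 3.35 to 3.92 CPM in OVX, without overlap, and did not pass the test (-0.79, adjusted p = 0.0764). Cxcr6, the receptor of Cxcl16, had 83 counts over both MSC libraries, 0 over both MSC+RAW-TW libraries and 65 over both MSC+RAW-LPS-TW libraries. MSC and MSC+RAW-LPS-TW were therefore 25.2-fold and 25.3-fold higher than a level of 3 counts in the single MSC+RAW-TW sample. These ratios cover counting error only. The neutrophil receptor Cxcr2, which binds the ELR+ members, was at 0.95 to 2.99 CPM in BMMs and at 0 to 0.117 CPM in the MSC experiment. Cxcr1, Cxcr5 and Ackr1 stayed under 1 CPM in every library.

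**Figure D5:**
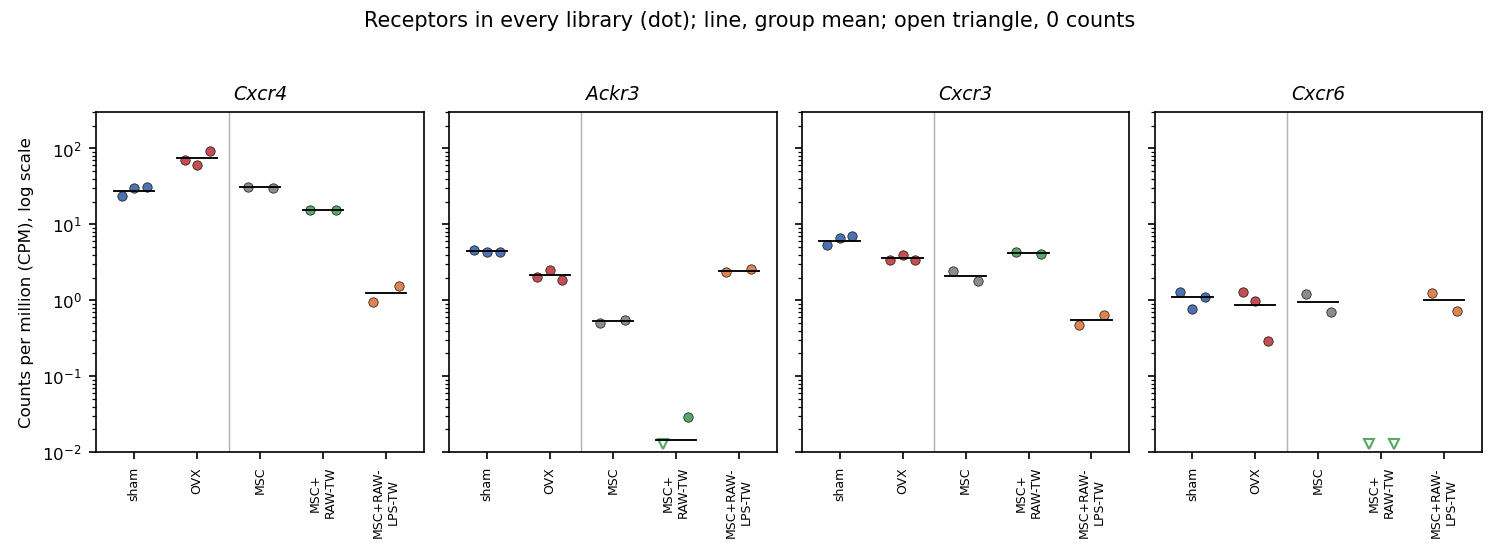
Dots give CPM of 4 receptors in each library on a log axis, lines the group means over samples and open triangles libraries at 0 counts. Cxcr4 lies at 60.6 to 93.4 CPM in OVX against 23.7 to 31.5 in sham, and at 0.961 to 1.53 in MSC+RAW-LPS-TW against 30.0 to 31.4 in MSC.

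Regulators of the family were followed as lists. Of 10 genes of the NF-kB arm, 8 were called higher in MSC+RAW-LPS-TW against MSC, beside 5.85% of all genes tested, with a median log2 fold change of 1.70. Of these, Rel was under the 2-fold limit without MSC+RAW-LPS-TW library A (0.92). The 8 were led by the feedback inhibitor Tnfaip3 (3.44, adjusted p = 6.75e-10), the nuclear cofactor gene Nfkbiz (3.35, adjusted p = 8.62e-10) and the feedback inhibitor Nfkbia (3.15, adjusted p = 1.47e-09). Against MSC+RAW-TW 7 were called higher, beside 15.4% of all genes, with Tnfaip3 at 4.35 and Nfkbiz at 3.73. In OVX against sham 4 were called lower, beside 3.08% of all genes, namely Bcl3 (-1.82, adjusted p = 0.00397), Nfkbia (-1.30, adjusted p = 0.00741), Nfkb2 (-1.15, adjusted p = 0.00999) and Relb (-1.07, adjusted p = 0.0321), with a median of -0.64. Of these, Relb was not called without OVX replicate 1 (adjusted p = 0.09), without OVX replicate 2 (0.117) or with the trends removed (0.0834). Nfkbia was not called without OVX replicate 2 (adjusted p = 0.0531), and Nfkb2 fell under the 2-fold limit with the trends removed (-0.71). In MSC+RAW-TW against MSC 1 was called lower, beside 9.59% of all genes, namely the subunit gene Rel (-1.49, adjusted p = 0.000495), which lay under the limit with the trends removed (-0.83).

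Of the interferon arm, the receptor chain Ifnar2 rose in MSC+RAW-LPS-TW against MSC (log2 fold change 1.31, adjusted p = 2.41e-05). Against MSC+RAW-TW, Ifnar2 (1.68, adjusted p = 2.23e-05) and the receptor chain Ifnar1 (1.11, adjusted p = 0.000779) rose, and Ifnar1 was under the 2-fold limit without MSC+RAW-LPS-TW library A (0.93). In OVX BMMs the interferon regulator Irf7 (-2.13, adjusted p = 0.00453) and the signal transducer Stat2 (-1.20, adjusted p = 0.00868) fell. Without OVX replicate 2, Stat2 was not called (adjusted p = 0.0579). Irf7 rose in MSC+RAW-TW against MSC (1.66, adjusted p = 2e-04).

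Of 7 genes that shed, cleave or destabilize chemokines or their mRNA, 6 were tested. The proteases Mmp9, which trims ELR+ chemokines, and Mmp8 rose in MSC+RAW-LPS-TW against MSC, by 4.24 (adjusted p = 9.42e-11) and 2.14 (adjusted p = 1.08e-06) on the log2 scale. Zfp36, whose protein destabilizes mRNAs with AU-rich elements, rose by 1.06 (adjusted p = 0.000118), and by 0.92 without MSC replicate 1, under the 2-fold limit. Mmp9 fell in OVX (-1.72, adjusted p = 0.00301).

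For each member with at least 1 CPM on average, the gene with the most similar profile was sought among 13504 genes by Pearson's r of log2 CPM over 10 samples, 5 of BMMs and 5 of MSCs. These samples share library tables and fall into groups, so r is a description. The closest genes were Zfp811 for Cxcl1 (r = 0.989), Il12a for Cxcl2 (0.994), Dusp16 for Cxcl3 (0.990) and Lacc1 for Cxcl5 (0.984). For the Cxcr3 ligands they were Abcc4 for Cxcl9 (0.992) and Mmp8 for Cxcl10 (0.983). For the others they were Capn6 for Cxcl12 (0.991), Fosl1 for Cxcl14 (0.994) and Cdk2ap2 for Cxcl16 (0.974).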

How the data were processed

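RNA-seq of 6 BMM and 6 MSC libraries was used. Per the labels and methods, the authors made directional poly(A) libraries, trimmed reads with Trim Galore 0.6.7, mapped them to GRCm38 with HISAT2 2.1.0 and assigned them to Ensembl genes with featureCounts 2.0.1, as named in the submitters' processing notes. Deposited are unnormalized, unfiltered counts, 1 column for each library. The strand setting and the treatment of read pairs and of reads with several hits are not given in the sources used here. Among values of 1 to 20 counts, 60.0% to 71.4% were even, so a count is not 1 independent molecule, and counting intervals and floors cover counting error only. All columns of per-sample values were used.

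GENCODE annotation of GRCm38 named 55227 of 55487 genes. Counts were tested with edgeR 4.0.16 in R 4.3.3 (TMM, filterByExpr, quasi-likelihood F-test, two-sided). Gene levels are CPM over TMM-scaled library sizes. The SE is the log2 fold change divided by the square root of F. Within groups, a chi-square per gene (at least 20 counts in the pair) was divided by the value from sampling. This ratio stayed flat from low to high counts in the pair of sham replicates 2 and 3 (2.48 and 3.09) and in both MSC+RAW-TW libraries (3.11 and 3.34), against 30.5 to 269 at high counts in other pairs, so the counts of each such pair were summed. The 3 MSC groups shared 1 fit. DESeq2 1.42.0, the study's tool, was an alternative, as were RLE factors, other filters, all libraries kept apart, no fold limit, trends (lowess, span 0.3) removed and each library left out. Chosen after seeing the data were the number series as a block and the removal of ribosomal RNA genes. Likeness used log2(CPM + 0.5). The fit was tested on simulated data. Python 3.11.15, pandas 2.3.3, numpy 2.4.6, scipy 1.17.1 and matplotlib 3.10.9 were used.

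Named were all members and receptors, and, from each list, genes called, at most 6 per comparison by size of change. Pf4 and Ppbp, neighbors of members, and the overlapping gene Zmynd15 were named after their values were seen. Members and lists were chosen with earlier results of these data known. Some genes of the interferon list are not reported here.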

Additional observations from a re-analysis of the deposited data

How the results depend on the processing

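Over the alternatives, members kept their direction and their side of the threshold in 135 of 144 values for OVX against sham. For MSC+RAW-LPS-TW they did so in 154 of 159 values when set against MSC and in 157 of 159 against MSC+RAW-TW, and for MSC+RAW-TW against MSC in 145 of 158. The alternatives share samples, and the setting without a fold limit reuses the main fold changes, so these values are not independent. With GC and length trends removed, 4 members and 590 genes were called in OVX against sham, where 37.3% of the calls were higher instead of 63.6%. In MSC+RAW-TW against MSC that setting called 2165 genes, of which 52.1% were higher instead of 41.5%, and a mean of at least 1 CPM gave 50.3%. Without a fold limit 7 members and 5862 genes were called in MSC+RAW-TW against MSC, 4286 genes in MSC+RAW-LPS-TW against MSC and 2193 genes in OVX against sham. Leaving out 1 library at a time gave 0 to 2 members and 309 to 2390 genes in OVX against sham. The 0 came without OVX replicate 2 by edgeR, with 3 members at an unadjusted p under 0.05, where DESeq2 called 2. Without OVX replicate 1, 678 genes were called. Of values not called, 5 turned: without sham replicate 1, Cxcl10 (0.58, range over libraries left out -0.87 to 0.58) and Cxcl14 (-0.11, range -0.11 to 0.19) in OVX against sham. Without MSC+RAW-TW library B, Cxcl10 turned in MSC+RAW-TW against MSC (-0.19, range -0.19 to 0.61). Without library B of MSC+RAW-LPS-TW, Cxcl16 turned in its comparison with MSC+RAW-TW (-0.071, range -0.071 to 0.39). The last was Cxcl2 (0.02) in MSC+RAW-TW against MSC with the trends removed. The causes were not tested.

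Deviations of same-numbered OVX and sham libraries correlated at 0.409, -0.026 and 0.353, so the numbers were not taken to pair samples. The fit with the replicate block, with all libraries kept apart, called 2 members and 2117 genes. By the replicate numbers of the labels, no paired analysis was possible for the MSC comparisons because the MSC+RAW-TW and MSC+RAW-LPS-TW columns do not carry them. The number series of the column names was used as a block after seeing the data, with all libraries kept apart. This fit called 8 members in MSC+RAW-LPS-TW against MSC, 8 against MSC+RAW-TW, 4 in MSC+RAW-TW against MSC and 2 in OVX against sham. The share of all genes it called is not given here. Both block fits took near-identical libraries as separate samples, so they do not show that the main calls hold. Of 48 calls of listed genes and receptors, 37 held over the DESeq2, trend and left-out-library alternatives.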
